A study of Mus musculus with 3 samples.

Results

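The genes described here are 35 members of the p53 pathway and of the arrest genes used to follow senescence in fibroblasts, chosen by name out of the 21782 genes in the deposited table. All 35 were found in the table under their own symbols. They are the p53 family (3 genes), its regulators Mdm2 and Mdm4, 12 arrest genes, 13 apoptosis genes, 4 repair genes and the senescence marker Glb1. The measurement was RNA-seq of polyA-selected RNA from asynchronous wild type (WT) mouse embryo fibroblasts (MEFs), which are cells grown out of embryos, here at E12.5, cultured with 20% fetal bovine serum. There were 3 clones with 1 library each and no other genotype, treatment or time point, so clones were compared with each other and no condition was compared with a control. Nothing in the labels says whether the clones came from different embryos, and the strain and the passage number of the cells are not named in them.

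p53 is a transcription factor that is held at a low level by MDM2 and MDM4 and is released from them when DNA is damaged or growth signals are abnormal. It then switches on genes that stop the cell cycle, genes that permeabilise mitochondria or sense death signals, and genes that recognise or bypass DNA lesions. The Cdkn2a and Cdkn2b genes lie side by side, and their products block the cyclin D kinases or, for the ARF product of Cdkn2a, hold MDM2 away from p53. MEFs are known for the rise of these products as they are passaged in culture, which ends in senescence.

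The promoters were read in RefSeq's windows on GRCm38.p6, each running from 250 bases before to 50 bases after a start site, and 26 members had 35 such windows. Cdkn1a, the gene of the cyclin-dependent kinase inhibitor p21, has an upstream start site at 29090979 on the plus strand of chromosome 17 with a pair of adjacent p53 consensus decamers 51 bases before it. The site is shown because Cdkn1a is the textbook p53 target, and it lies at chr17:29090928-29090947. Capitals mark both decamers in the stretch chr17:29090908-29090967, which carries 1 mismatch to the consensus.
Cdkn1a: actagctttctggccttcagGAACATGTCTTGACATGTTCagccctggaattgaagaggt
The consensus was searched on both strands, where it reads alike, with the 4 core bases of each decamer intact and at most 3 mismatches elsewhere. In the window of the downstream Cdkn1a start site, 2790 bases from the upstream one, neither the pair nor an exact decamer was found. Besides Cdkn1a, such a pair was found for Trp53 (chr11:69580284-69580303, plus strand), Bbc3 (chr7:16309486-16309505, plus strand) and Aen (chr7:78895937-78895956, plus strand), each with 3 mismatches and starting 75, 97 and 121 bases before a start site. The Aen pair also starts 10 bases after another start site of that gene. Capitals mark both decamers.
Trp53: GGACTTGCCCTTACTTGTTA
Bbc3: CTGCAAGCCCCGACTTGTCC
Aen: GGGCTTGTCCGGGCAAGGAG
The pair was thus in the windows of 4 of 26 members (15.4%), and of all 27025 genes with windows 182 (0.673%) held it. An exact decamer on its own was in the windows of 10 of the 26 members (38.5%) and of 9.55% of all genes. A match is a description of sequence and not of binding, and sites outside these windows were not searched.

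Cdkn2a has a pair of start sites on the minus strand of chromosome 4, and they are shown because the table gives only 1 count per gene for both. The transcript that starts at 89294619 is that of ARF, and the transcript that starts 12427 bases further downstream, at 89282192, is that of INK4A. Cdkn2b, which encodes INK4B, starts at 89311032 on the same strand, 16413 bases before the ARF start. The stretches below end 40 bases before each start site, and capitals mark CG pairs.
Cdkn2a upstream of the ARF start (chr4:89294660-89294739): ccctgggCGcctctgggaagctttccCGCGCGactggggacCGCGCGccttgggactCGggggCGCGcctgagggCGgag
Cdkn2a upstream of the INK4A start (chr4:89282233-89282312): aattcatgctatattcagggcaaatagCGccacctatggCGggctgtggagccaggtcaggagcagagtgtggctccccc
Cdkn2b (chr4:89311073-89311152): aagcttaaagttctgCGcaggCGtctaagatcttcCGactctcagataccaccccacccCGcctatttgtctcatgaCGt
The 250 bases before the ARF start held 40 CG pairs and 78.4% G or C. The INK4A start had 7 CG pairs and 60.0% G or C, and Cdkn2b had 12 CG pairs and 53.6% G or C, while the median over all windows was 6 CG pairs and 52.4%. The counts of Cdkn2a given below cannot be divided between ARF and INK4A.

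Between 22594316 and 25261357 reads were counted on genes per library, a 1.12-fold range. Levels are given as CPM, which are counts per 1000000 counted reads, after the library sizes were multiplied by TMM factors from edgeR (0.9835 to 1.0188). Where 3 values follow each other, they are those of clones 1, 2 and 3. The 3 counts that an observed 0 still permits correspond to 0.119 to 0.133 CPM. The fibroblast markers were present in every clone, with Col1a1 at 27713 CPM and Vim at 4002 CPM on average, although Dcn at 7.73 CPM and Lum at 2.03 CPM were low. The epithelial markers Epcam, Cdh1, Krt5, Krt14, Krt15 and Cldn7 had at most 5 counts in any library. Of the same list, Krt19 had 433, 842 and 575 counts and Cldn4 had 65, 14 and 82. Clone 2 stood apart in its macrophage markers, whose 12 genes summed to 1873 CPM there, against 398 CPM in clone 1 and 330 CPM in clone 3. All 12 were highest in clone 2, and no marker of that list was at 0 in any clone. In bulk RNA, fewer cells of a type and less RNA per cell cannot be told apart.

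Of the 35 members, 33 (all but Trp63 and Trp73) reached at least 1 CPM in every clone, as did 52.2% of all genes. Levels of different genes were compared per kb of annotated exon (GENCODE M21). On this scale the means of the 33 expressed members ran over a 134-fold range, and 26 of them lay above the median of all expressed genes, which was 5.46 CPM per kb. At the top stood Ccng1, the gene of cyclin G1, at 115 ± 15.4 CPM per kb (SD, n = 3 clones), Cdkn1a at 107 ± 11.5 CPM per kb and Gadd45g, a stress-induced growth arrest gene, at 101 ± 14.3 CPM per kb. Only 3.14% of all expressed genes had a higher level per kb than Cdkn1a. Phlda3 at 97.6 ± 6.65 CPM per kb and Bax at 86.6 ± 7.86 CPM per kb were the highest apoptosis genes. Cdkn2a followed after Plk2, with a wide spread, at 50.0 ± 26.7 CPM per kb, and Cdkn2b reached 34.0 ± 13.7 CPM per kb. At the bottom were genes of DNA repair and of sestrin 1, with Xpc at 2.06 ± 0.0855 CPM per kb, Sesn1 at 1.89 ± 0.120 CPM per kb, Ddb2 at 0.984 ± 0.361 CPM per kb and Rrm2b at 0.857 ± 0.101 CPM per kb. For 28 of the 32 neighbours in the order of levels, the ranges over the clones overlapped. Levels per kb depend on the length used. When the transcript with the longest coding region set the length, the highest were Cdkn1a (183 CPM per kb), Bax (157), Plk2 (125) and Ccng1 (115), and Mdm4, whose annotated exons add up to far more than that transcript, moved to 40.2 CPM per kb. With the union of exons, the 4 steps without overlap were those from Ei24 to Aen, from Polk to Mdm4, from Perp to Xpc and from Sesn1 to Ddb2.

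**Figure D1:**
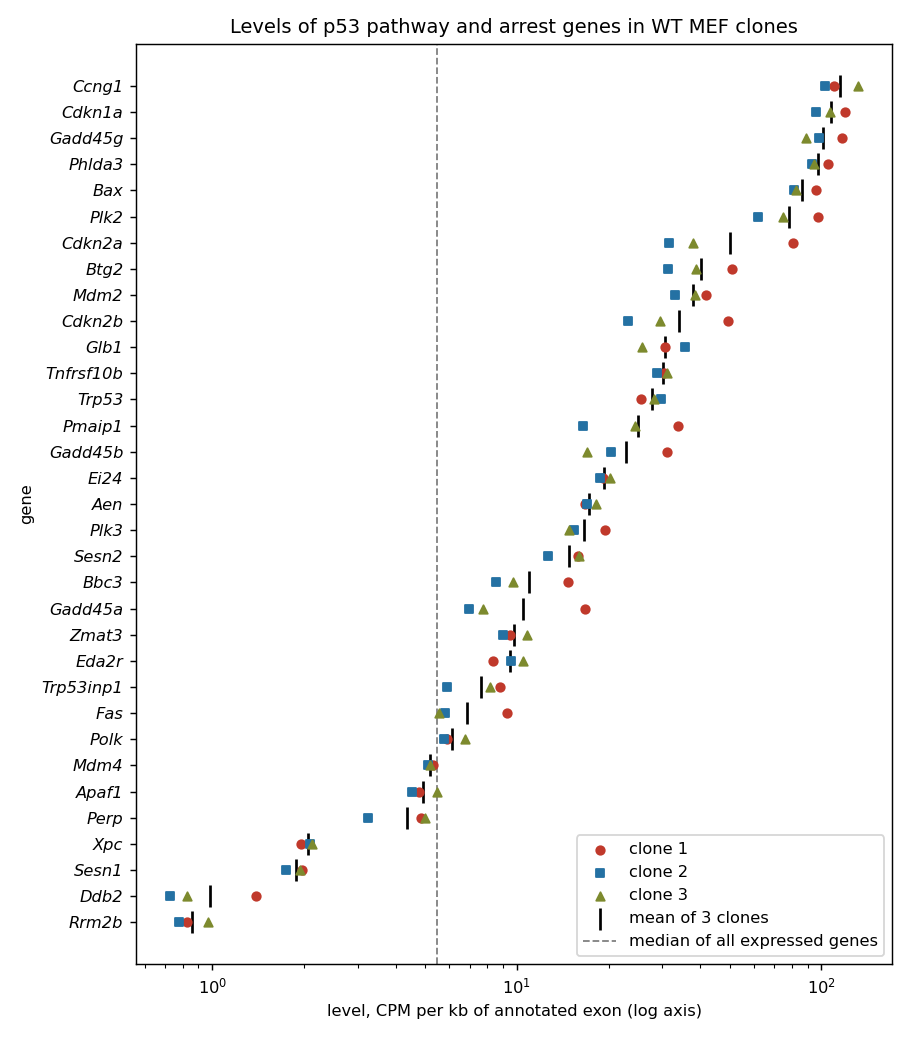
Level of each expressed member in each clone, in CPM per kb of annotated exon on a log axis, with the mean of the 3 clones as a black bar and the median of all expressed genes (5.46 CPM per kb) as a dashed line. With this length, arrest and apoptosis genes such as Ccng1 and Bax are at the top, and the repair genes Xpc, Ddb2 and Rrm2b are near the bottom.

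Genes were tested for differences between the clones with a Pearson chi-square test of the counts on every gene with at least 10 counts in each clone, and p-values were adjusted by Benjamini-Hochberg over all genes tested, with 0.05 as the limit. This test covers counting error only and compares libraries. It called 28 of the 33 members tested (84.8%), while 62.5% of all 12218 genes tested were called. The members had more counts than most genes, with a median of 58.6 CPM against 25.7 CPM over expressed genes, and the test is more sensitive at higher counts. The CPM of the highest clone over that of the lowest had a median of 1.26 over the members and 1.24 over all genes tested. All genes tested had a lower median level, 22.4 CPM, and counting error widens this ratio at low counts. These medians therefore do not compare like with like. A difference of at least 2-fold was found for 4 called members (12.1%) and for 7.93% of all genes, and one of at least 1.5-fold, a limit chosen after seeing the data, for 11 members (33.3%) and for 18.6% of all genes. The 2-fold differences rested on clone 1: without it 0 members reached 2-fold, and without clone 2 the number was 2.

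The called members were unevenly spread over the clones. Of the 33 members tested, 17 (51.5%) were called and highest in clone 1, which held for 23.8% of all genes tested. Another 9 were called and highest in clone 3 (15.3% of all genes) and 2 were called and highest in clone 2 (23.5% of all genes). Being called and lowest in clone 2 held for 20 members (60.6%) and for 21.3% of all genes. For 13 members (39.4%, against 15.9% of all genes), the call came with clone 1 highest, clone 3 in between and clone 2 lowest. These shares also rise with the share called, which was higher for the members. Called or not, clone 1 was highest for 57.6% of the members tested and for 37.6% of all genes tested. Clone 2 was lowest for 72.7% and 34.8%, and both held for 45.5% and 23.4%. Each gene's log2(CPM + 1) was also set against its own average over the clones, and the median of this difference over the members was 0.15 for clone 1, -0.12 for clone 2 and 0.02 for clone 3. Over all genes the median was within 0.01 of 0 in every clone. Clone 2 was also the clone with the highest macrophage markers. The fibroblast markers moved with clone 1: 7 of 10 were called and highest there, 4 of them with clone 2 lowest, led among the abundant ones by Fn1 (fibronectin) at 1.76-fold, and their median differences were 0.23, -0.09 and -0.10. The part of either marker list in the members' differences was not tested.

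**Figure D2:**
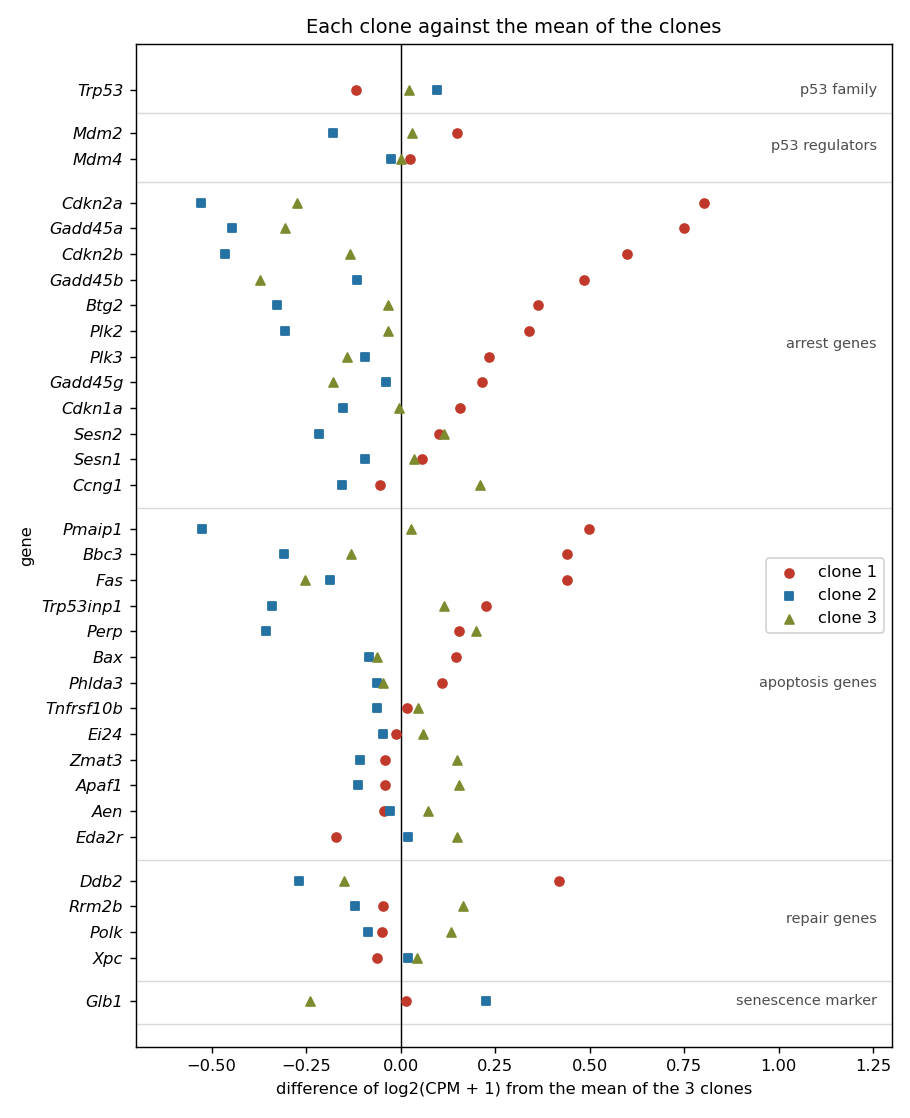
Difference of each clone's log2(CPM + 1) from the average over 3 clones for the 33 members tested, by role. Clone 1 is to the right of the other clones for most arrest genes, led by Cdkn2a, and clone 2 is the lowest for most arrest and apoptosis genes.

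Trp53, the gene of p53 itself (chromosome 11, 69580359 to 69591873, plus strand), was not among these. It had 2569, 2705 and 2878 counts, with a mean of 112 ± 8.38 CPM (SD, n = 3). After scaling, clone 1 was the lowest at 103 CPM and clone 2 the highest at 120 CPM, a 1.16-fold difference (95% interval 1.10 to 1.23, counting error only; chi-square adjusted p = 1.09e-06). The call rested on clone 1, since clones 2 and 3 did not pass the test on their own (adjusted p = 0.132). The relatives of p53 were at the limit of detection. Trp63, which marks basal epithelium, had 2, 2 and 1 counts, and Trp73 had 0, 1 and 2 counts. No value of either exceeded the 3 counts that an observed 0 still permits.

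Mdm2, the ubiquitin ligase of p53 and itself a p53 target (chromosome 10, 117688875 to 117710758), had 5260, 3802 and 4928 counts, or 192 ± 21.7 CPM. Its level was 1.26-fold higher in clone 1 than in clone 2 (95% interval 1.20 to 1.31; chi-square adjusted p = 9.08e-25), with clone 3 in between, whereas Trp53 was highest in clone 2. Mdm4, which restrains p53 without being a ligase of its own, was the steadiest member, with 1947, 1704 and 1944 counts and 77.0 ± 1.40 CPM. Its clones did not pass the test (adjusted p = 0.607), and the 95% interval of the highest over the lowest ran from 0.971 to 1.11. Of the reads on Mdm2 and Mdm4 together, Mdm2 took 69.1% in clone 2 (95% Wilson interval 67.8 to 70.3), less than the 73.0% of clone 1 (71.9 to 74.0) and the 71.7% of clone 3 (70.6 to 72.8).

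Of the roles with several members, the arrest genes had the widest differences between the clones, with a median of 1.44 for the highest over the lowest clone against 1.21 for the apoptosis genes and 1.21 for the repair genes. Of the 12, 11 were called (91.7%, against 62.5% of all genes tested). Of these, 9 were highest in clone 1, and 23.8% of all genes were called and highest there. Called or not, clone 1 was highest for 83.3% of the arrest genes and for 37.6% of all genes tested. The median of the arrest genes' log2 differences was 0.29 for clone 1, -0.19 for clone 2 and -0.08 for clone 3. Clones 1 and 2 on their own differed for 11 of the 12, all higher in clone 1, and 24.6% of all genes tested were called and higher there. Between clones 1 and 3, 9 were called and higher in clone 1 (21.2% of all genes), and between clones 3 and 2, 7 were called and higher in clone 3 (15.1% of all genes). Cdkn2a, Gadd45a and Cdkn2b ranged over more than 2-fold, and clone 1 was the highest for each.

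Cdkn2a (chromosome 4, 89274471 to 89294653, minus strand) had 2349, 834 and 1118 counts. Clone 1, at 94.5 CPM, was 2.56-fold above clone 2 (37.0 CPM; 95% interval 2.36 to 2.77; chi-square adjusted p = 3.21e-174) and 2.14-fold above clone 3 (44.3 CPM), while clones 3 and 2 were 1.20-fold apart. Cdkn2b (chromosome 4, 89306299 to 89311039, minus strand) had 1708, 729 and 1033 counts, or 68.7, 32.3 and 40.9 CPM, with the same order of clones and a 2.13-fold range (95% interval 1.95 to 2.32; adjusted p = 9e-79). The neighbours did not move in strict proportion. Of the reads on Cdkn2a and Cdkn2b together, Cdkn2a took 57.9% in clone 1 (95% Wilson interval 56.4 to 59.4). This compares with 53.4% (50.9 to 55.8) for clone 2 and 52.0% (49.9 to 54.1) for clone 3, so its share was higher in clone 1 by more than counting error and did not separate clones 2 and 3.

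Cdkn1a (chromosome 17, 29090976 to 29100727, plus strand), whose p53 site is printed above, had far more reads and a smaller range. Its counts were 10527, 7710 and 9571, or 424, 342 and 379 CPM. Clone 1 was 1.24-fold above clone 2 (95% interval 1.20 to 1.28; chi-square adjusted p = 1.2e-44). The median range over all genes tested was also 1.24. Those genes had a median of only 22.4 CPM, where counting error widens the ratio, so this is not a like comparison. Ccng1, at 9575, 8106 and 11698 counts, was highest in clone 3, 1.29-fold above clone 2 (adjusted p = 2.73e-75). Between clones 1 and 3 these p53 targets were thus ranked in opposite order.

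The Gadd45 genes encode small stress proteins that bind cell cycle kinases and MAP kinase kinases. Gadd45a, the classic p53 target among them, had 734, 278 and 346 counts, and its 29.5 CPM in clone 1 were 2.40-fold above clone 2 (95% interval 2.08 to 2.76; chi-square adjusted p = 2.59e-51). Gadd45b had 1232, 729 and 680 counts, a 1.84-fold range with clone 3 the lowest (adjusted p = 4.21e-41). Gadd45g had 3403, 2587 and 2627 counts and a 1.32-fold range, again with clone 3 the lowest (adjusted p = 1.6e-25). Clone 1 was the highest for all 3 paralogs, and they differed in the clone that was lowest. Without clone 1, Gadd45a did not pass the test (adjusted p = 0.344), and 19.1% of its exons overlap those of a gene on the opposite strand. Set against Gadd45g, Gadd45a made up 17.7% of their reads in clone 1 (95% Wilson interval 16.6 to 18.9), above the 9.70% of clone 2 (8.67 to 10.8) and the 11.6% of clone 3 (10.5 to 12.8).

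Btg2, which restrains proliferation through mRNA decay, had 3471, 1944 and 2674 counts, and Plk2, a polo-like kinase induced by p53, had 10832, 6276 and 8494 counts. Both were highest in clone 1 and lowest in clone 2, by 1.62-fold for Btg2 (chi-square adjusted p = 1.61e-67) and by 1.57-fold for Plk2 (adjusted p = 4.61e-186). Plk3, its relative, had 1220, 878 and 951 counts, and clone 1 was 1.30-fold above clone 3 (adjusted p = 4.18e-10), although clones 2 and 3 did not pass the test on their own (adjusted p = 0.641). The sestrins, which restrain mTORC1, were among the arrest genes that differed least. Sesn2 had 1372, 994 and 1408 counts, with clone 2 below both others by 1.26-fold at most (adjusted p = 1.4e-08), and without clone 2 it was not called (adjusted p = 0.844). Sesn1 had 195, 157 and 195 counts and was not called (adjusted p = 0.553; 95% interval of the highest over the lowest 0.909 to 1.40).

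**Figure D3:**
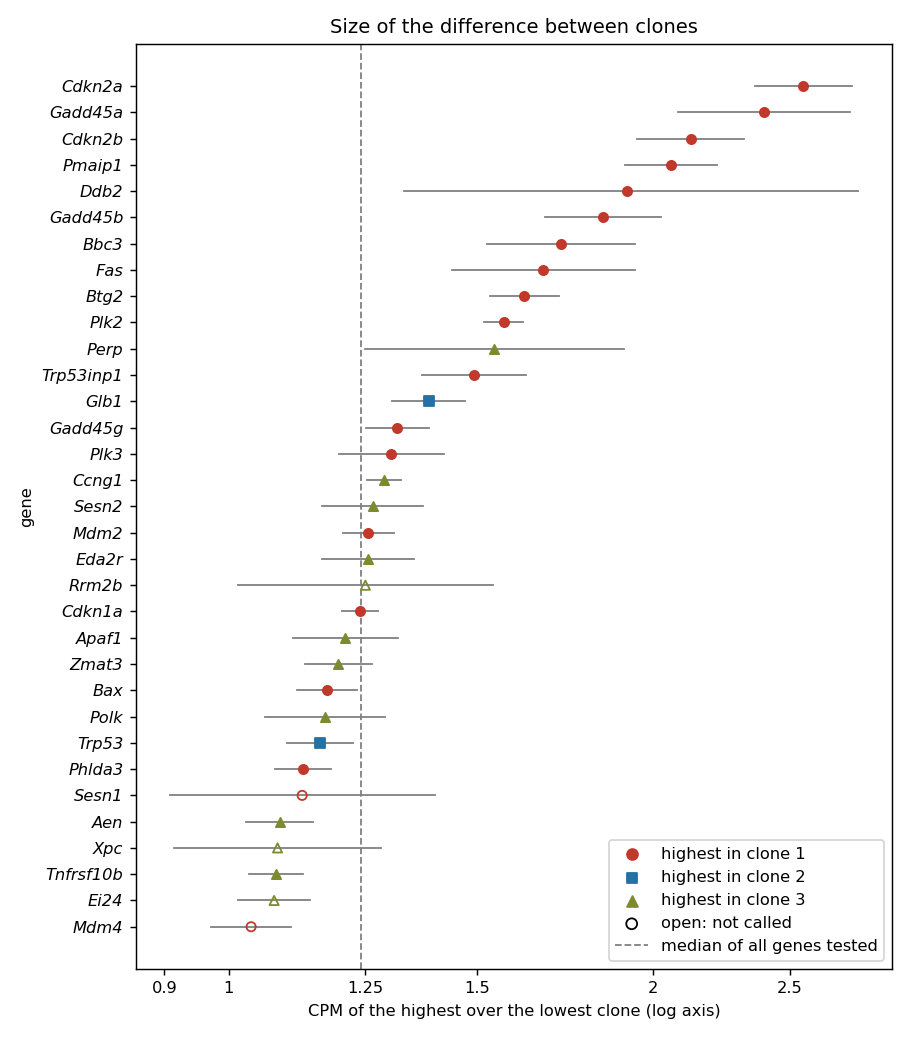
CPM of the highest clone over that of the lowest for each member tested, on a log axis, coloured by the clone that was highest. Lines are 95% intervals of counting error, open symbols were not called, and the dashed line is the median of all genes tested (1.24). Cdkn2a, Gadd45a, Cdkn2b and Pmaip1 lie beyond 2-fold, all highest in clone 1.

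Of the 13 apoptosis genes, 12 were called, 6 with clone 1 highest and 6 with clone 3 highest, and 9 of the 12 were lowest in clone 2. The median of their log2 differences was 0.11 for clone 1, -0.11 for clone 2 and 0.06 for clone 3. Over all genes tested, 62.5% were called. Of all genes, 23.8% were called and highest in clone 1, 15.3% in clone 3, and 21.3% were called and lowest in clone 2. Called or not, clone 1 was highest for 46.2% of the apoptosis genes and for 37.6% of all genes tested. Clone 2 was lowest for 76.9% and 34.8%. Pmaip1 (NOXA), a BH3-only gene, had 2303, 1015 and 1680 counts, and it was the only apoptosis gene with a range of at least 2-fold (2.06-fold; 95% interval 1.91 to 2.22; chi-square adjusted p = 1.2e-84). Bbc3 (PUMA), of the same class, had 775, 409 and 522 counts, 1.72-fold higher in clone 1 than in clone 2 (95% interval 1.52 to 1.94; adjusted p = 3e-21). Without clone 1 the call on Bbc3 was lost (adjusted p = 0.119), whereas that on Pmaip1 was kept.

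Bax, the pore-forming protein that BH3-only proteins set free, varied far less than they did. It had 3744, 2895 and 3288 counts, or 136 ± 12.4 CPM, with clone 1 only 1.17-fold above clone 2 (adjusted p = 6.57e-12 in the chi-square test). The ratio of Bax to Bbc3 therefore differed, with Bax at 82.9% of their reads in clone 1 (95% Wilson interval 81.7 to 83.9), below the 87.6% of clone 2 (86.5 to 88.7) and the 86.3% of clone 3 (85.2 to 87.4). Apaf1, the scaffold of the apoptosome, had 1071, 923 and 1250 counts and was highest in clone 3 by 1.21-fold (adjusted p = 5.86e-05). Bax was not called without clone 1 (adjusted p = 0.733), nor Apaf1 without clone 3 (adjusted p = 0.34).

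The death receptors went different ways. Fas had 475, 271 and 289 counts, and it was 1.67-fold higher in clone 1 than in clone 3 (95% interval 1.44 to 1.94; chi-square adjusted p = 1.14e-13). Tnfrsf10b, the TRAIL receptor of the mouse, was more abundant, at 4131, 3545 and 4288 counts, and nearly even, with a 1.08-fold range (adjusted p = 0.00504). Eda2r, a receptor of the same superfamily, had 1223, 1271 and 1560 counts, and clone 1 was its lowest clone, 1.25-fold below clone 3 (adjusted p = 7.64e-08). The calls on Fas and Tnfrsf10b each rested on a single clone, being lost without clone 1 for Fas (adjusted p = 0.712) and without clone 2 for Tnfrsf10b (adjusted p = 0.426).

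Among the other apoptosis genes, Phlda3, an inhibitor of AKT, had 4078, 3279 and 3714 counts with clone 1 highest (1.13-fold, chi-square adjusted p = 1.26e-07; 0.777 without clone 1). Trp53inp1, a p53 cofactor in stress, had 1419, 863 and 1335 counts, with clone 2 apart from the others (1.49-fold, adjusted p = 1.03e-19). Perp, a membrane protein of cell junctions, had 235, 143 and 247 counts and was also lowest in clone 2 (1.54-fold, adjusted p = 0.000149). For Trp53inp1 and Perp, clones 1 and 3 did not pass the test on their own (adjusted p = 0.0924 and 0.789 in the chi-square test of these clones). Zmat3, an RNA-binding zinc finger protein, had 2690, 2329 and 3120 counts, and Aen, an exonuclease of dying cells, had 2417, 2220 and 2669 counts. Both were highest in clone 3, by 1.20-fold (adjusted p = 1.58e-10) and 1.09-fold (adjusted p = 0.0113), and neither was called without clone 3 (adjusted p = 0.153 and 0.757). Ei24, a membrane protein of the endoplasmic reticulum, had 2323, 2058 and 2482 counts and was not called (adjusted p = 0.0592; 95% interval of the highest over the lowest 1.02 to 1.14). It passed with total counts as library sizes (adjusted p = 0.0034) and without clone 1 (adjusted p = 0.043). The interval compares only its highest and lowest clones, picked from these counts, and makes no allowance for that choice.

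Of the 4 repair genes, 2 were called (50.0%, against 62.5% of all genes tested), and 3 had at most 295 counts in any clone. Ddb2, which recognises ultraviolet lesions, had 95, 45 and 57 counts, 1.92-fold higher in clone 1 than in clone 2 (95% interval 1.33 to 2.80; chi-square adjusted p = 0.000389). Its call rested on clone 1, since clones 3 and 2 did not pass the test on their own (adjusted p = 0.692), and 23.8% of its exons overlap those of Acp2 on the opposite strand. Xpc, its partner in nucleotide excision repair, had 268, 259 and 295 counts and was not called (adjusted p = 0.668; 95% interval of the highest over the lowest 0.915 to 1.28). Polk, a polymerase that copies past lesions, had 816, 722 and 946 counts and was highest in clone 3 (1.17-fold, adjusted p = 0.00438; 0.702 without clone 3). Rrm2b, the p53-inducible subunit of ribonucleotide reductase, had 187, 160 and 224 counts and was not called (adjusted p = 0.103).

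Glb1 encodes the lysosomal beta-galactosidase whose activity is stained in senescent cells. It had 2299, 2418 and 1954 counts, or 92.4 ± 14.9 CPM. The highest clone was clone 2, 1.39-fold above clone 3 (95% interval 1.31 to 1.47; chi-square adjusted p = 6.69e-25), which differs from the order of Cdkn2a and Cdkn2b, where clone 2 was lowest. Macrophages are rich in lysosomes, and clone 2 also had the highest macrophage markers, whose part in the level of Glb1 was not tested.

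Other lists of the pathway are described for context. Of 46 further p53 pathway genes tested, 30 were called (65.2%, against 62.5% of all genes tested), and 0 reached 2-fold (7.93% of all genes). Of the called genes, 11 were highest in clone 1, 8 in clone 2 and 11 in clone 3. Over all genes tested, 23.8%, 23.5% and 15.3% were called and highest in clones 1, 2 and 3. The share of these pathway genes called was thus near that of all genes. The median of their log2 differences stayed between -0.02 and 0.01. The called genes with the widest spread were Hipk2, a kinase of p53 (292, 226 and 430 counts), the BH3 protein gene Bid (566, 315 and 470 counts), the repair nuclease gene Ercc5 (1348, 779 and 1126 counts) and the checkpoint kinase gene Chek1 (156, 219 and 258 counts). Bid and Ercc5 had clone 1 highest and clone 2 lowest. Ppm1d, the phosphatase that switches p53 signalling off, had 238, 256 and 272 counts and was not called.

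The other inhibitors of cyclin-dependent kinases did not follow Cdkn2a and Cdkn2b as a group. Cdkn1c (p57) had 670, 374 and 583 counts, with clone 1 highest and clone 2 lowest, whereas Cdkn2c (INK4C) had 169, 243 and 234 counts, with clone 1 lowest. Cdkn1b (p27) had 460, 437 and 538 counts and was not called, and Cdkn2d had at most 13 counts. Of the 9 kinases, cyclins and Rb1 on which the inhibitors act, all were called (62.5% of all genes tested). Of the 9, 7 were lowest in clone 1, where 27.1% of all genes tested were called and lowest. Called or not, 39.4% of all genes tested were lowest there. The widest were Ccne2 at 107, 350 and 317 counts, Cdk6 at 69, 85 and 132, Ccne1 at 875, 1255 and 1246 and Rb1 at 319, 214 and 351. Cdk4, at 6084, 5778 and 6679 counts, and Ccnd1, at 4930, 5893 and 5740 counts, were lowest in clone 1 after scaling, by 1.08-fold and 1.32-fold.

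Of 15 regulators of the Cdkn2a and Cdkn2b locus, 12 were called (80.0%, against 62.5% of all genes tested). The medians of their log2 differences were within 0.02 of 0 in every clone. Ezh2, the Polycomb methyltransferase that silences the locus, had 501, 846 and 848 counts, and clone 2 was 1.86-fold above clone 1 (95% interval 1.66 to 2.08). Bmi1, another Polycomb repressor, had 534, 556 and 781 counts, with clone 1 lowest and clone 3 highest (1.44-fold). Cbx7 had 56, 25 and 43 counts and Ets2 had 594, 814 and 685. Ezh2 was thus lowest in the clone where Cdkn2a and Cdkn2b were highest, and Cbx7, also a Polycomb gene, was highest there. Of the 15 regulators, 3 were called and lowest in clone 1, against 27.1% of all genes tested. The relation of these regulators to the level of Cdkn2a and Cdkn2b was not tested.

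Of 18 genes that accompany senescence, such as chromatin proteins that fall and secreted factors that rise with it, 16 were called. These were 88.9% of the list, against 62.5% of all genes tested. The chromatin genes and the rest were counted apart after their values were seen. All 5 chromatin genes (Lmnb1, Hmgb1, Hmgb2, Hmga1 and Hmga2) were called and lowest in clone 1, from 1.43-fold for Hmgb1 to 2.23-fold for Hmga1. Of the whole list of 18, 7 were called and lowest in clone 1, which held for 27.1% of all genes tested. The 5 were set apart after their values were seen, so their share cannot be weighed against that of all genes. Of the 13 secreted and surface factors, 11 were called, 4 with clone 1 highest (Il6, Cxcl1, Igfbp3 and Igfbp7), 4 with clone 2 highest and 3 with clone 3 highest. For all genes tested, 23.8%, 23.5% and 15.3% were called and highest in clones 1, 2 and 3. Il6 had 107, 44 and 61 counts, a 2.21-fold range (95% interval 1.54 to 3.21). The genes with the widest spread were others. Mmp13 had 53, 139 and 52 counts, Cxcl5 35, 57 and 112, the chromatin gene Hmga1 115, 233 and 216, and Icam1 95, 178 and 87. None of these 4 was highest in clone 1. The 12 proliferation genes were all called, lowest in clone 1 and highest in clone 2. Of all genes tested, 27.1% were called and lowest in clone 1, and 23.5% were called and highest in clone 2. Called or not, these shares were 39.4% and 35.2%. Among the proliferation genes, Aurkb had 289, 687 and 593 counts, Ccna2 750, 1634 and 1521, Bub1 349, 769 and 847 and Ccnb2 372, 799 and 678. The median of that list was -0.64 for clone 1, 0.43 for clone 2 and 0.17 for clone 3, the reverse of the order of the arrest genes. These lists share the same libraries, so their orders are given side by side and their relation was not tested.

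**Figure D4:**
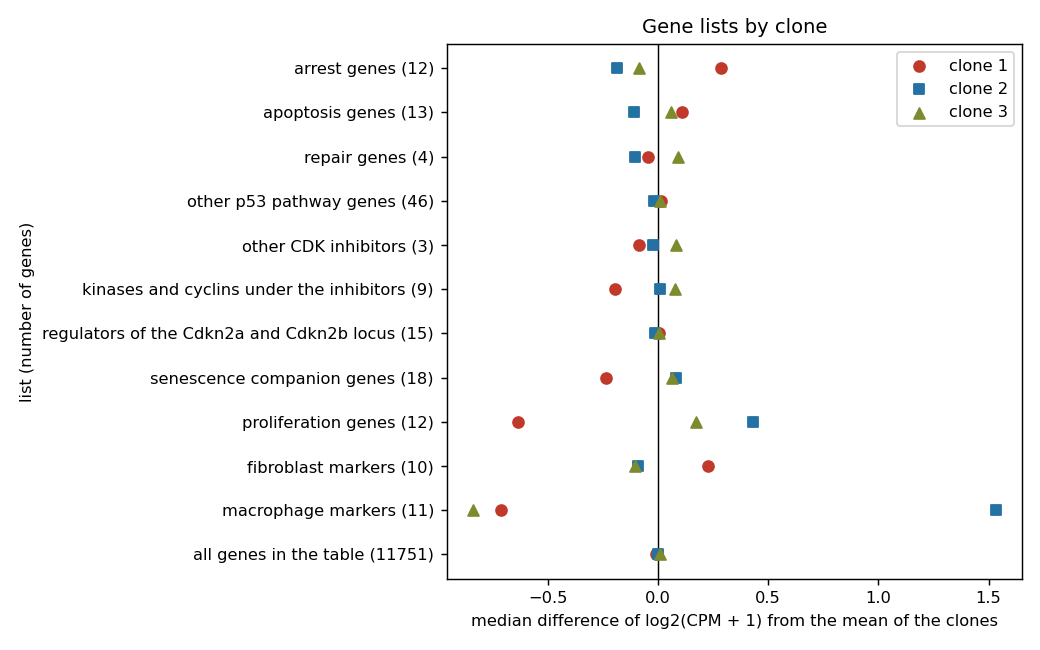
Median difference in log2(CPM + 1) of each clone from the average over 3 clones for each list with at least 3 genes at a mean of 1 CPM, with the number of genes in brackets. The arrest genes are highest in clone 1 (0.29) and the proliferation genes lowest there (-0.64), the macrophage markers are highest in clone 2 (1.54), and the median of all genes is near 0.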

How the data were processed

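The authors aligned 86-nt single-end reads with TopHat (version 2.0.0, which ran Bowtie), allowing 2 mismatches and 5 multi-hits, and assigned them to genes with HTSeq. They deposited raw counts per gene and clone. Their methods name mm10 and the submitters' processing notes mm9. The annotation and the strand setting are not given in the sources used here, so reads of overlapping or copied genes are uncertain. Opposite-strand exons overlap 7.7% of the exons of Cdkn1a, and 13.8% of the 86-nt stretches of Bax occur in another transcript.

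CPM used edgeR 4.0.16 TMM factors in R 4.3.3. The chi-square test (2 degrees of freedom, minimum 10 counts per clone) was adjusted over all genes tested. Intervals of ratios are exact binomial intervals and those of shares Wilson intervals, at 95%, and cover counting error only. The ratio intervals are of the clones that were highest and lowest in the same counts. They make no allowance for that choice and do not replace the test of all clones. Exon lengths are unions of GENCODE M21 exons (GRCm38), matched for 99.7% of the genes. On simulated counts with 2-fold changes in 1 clone, the test recovered 87.1% of 194 changed genes among 12393. Apart from these changes, the simulated clones differed by counting error only, so other spread between clones was not covered. Alternatives were DESeq2 1.42.0 size factors, total counts, other thresholds, thinned counts, another pseudocount, another length and leaving out each clone.

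The members and the gene lists were chosen with earlier results of these data known. All members are named, and of each other list the 4 called genes with the widest span of log2(CPM + 1) and the partners Ppm1d, Cdkn1b, Cdk4, Ccnd1 and Bmi1. Calculations used Python 3.11.15 with scipy 1.17.1.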

Additional observations from a re-analysis of the deposited data

How the results depend on the processing

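The number of members called as differing stayed between 28 and 29 with other library sizes, without the count filter and with thinned counts, and between 21 and 24 when a clone was left out. The number with at least 2-fold ranged from 0 without clone 1 to 4 without clone 3, and was 2 without clone 2, so that no member reached 2-fold between clones 2 and 3. It was 11 with a limit of 1.5-fold, chosen after seeing the data. Between 32 and 34 members counted as expressed under other thresholds, and 33 without any 1 of the clones. The median difference of the members kept its sign in every clone under other scalings, pseudocounts and filters. Clone 3 was below clone 1 (-0.06) when clone 2 was left out and above clone 2 (0.07) when clone 1 was left out. Per kb of exon, 12 members lay above Trp53. When instead the longest-coding transcript gave each gene's length (1771 nt for Trp53, against 4045 bp of exon), 7 did. Without 1 clone this number was 11 to 13.

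For single members, 213 of 231 comparisons with an alternative kept the main result, whether called or not called. Without clone 1, calls were lost for Trp53, Gadd45a, Plk3, Bax, Bbc3, Fas, Phlda3 and Ddb2 (adjusted p = 0.119 to 0.777), without clone 2 for Sesn2, Perp, Trp53inp1 and Tnfrsf10b (0.0924 to 0.844) and without clone 3 for Apaf1, Zmat3, Aen and Polk (0.153 to 0.757). Ei24 was called without clone 1 (adjusted p = 0.043). Fewer libraries carry less evidence in these tests. No paired analysis was possible because there is 1 group of samples. At this depth, Trp63 and Trp73 could not be told from absent, and with 1 library per clone a clone cannot be told apart from its culture or its library.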
